A study of Mus musculus with 18 samples.

Results

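Gene expression in sorted pre-mid-pachytene spermatocytes was compared between t12/T43 and Ttf/T43H carrier mice, each on 3 arrays. A gene entered the comparison where its deposited log2 value reached 4 on at least 2 of these 6 arrays, which 8957 of the 15780 named genes on the array did. Of these genes, 8046 reached 4 on all 6 arrays, 87 reached it only on Ttf/T43H arrays and 62 only on t12/T43 arrays. The second-highest value of the 6 arrays, on which the rule turns, was 4.0006 for the gene just inside and 3.9935 for the gene just outside.

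The t12/T43 males carried the t12 chromosome 17 opposite the T43 translocation chromosomes, and the Ttf/T43H males carried Ttf in place of t12, both on a C57BL/10J background. The labels write T43H for the one line and T43 for the other, and both are taken here to be the same translocation between chromosomes 16 and 17, so that it would be shared by both groups. They do not spell out what Ttf is. All males of these groups were 2 months old, and their spermatocytes were sorted by flow cytometry from testicular cell suspensions. C57BL/10J males, fertile and without t12, Ttf or T43, gave 2 arrays of pre-mid-pachytene cells and 2 arrays of mid-late-pachytene cells. The series of 18 arrays also holds whole testes of 15-day-old t12/T43 and Ttf/T43H males (3 arrays each), used here for the same contrast in other animals, and testes of C57BL/6J males of that age (2 arrays), which enter the testis fits for their spread only. The design text calls the replicates biological, and the study's title concerns the consequences for meiosis of extending unsynapsed autosomal chromatin.

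In pachytene, the long middle stage of the meiotic prophase, homologous chromosomes are held together by the synaptonemal complex, and chromatin that stays unpaired, such as the X and Y in males, is transcriptionally silenced. After the meiotic divisions, round spermatids switch on a further programme, which replaces histones by transition proteins and protamines and builds the acrosome and the tail. Some transcripts of that programme first accumulate in spermatocytes and are translated later. Translocations that leave autosomal segments unpaired are known to disturb meiosis in male mice. t haplotypes are variant forms of proximal chromosome 17 with inversions, and they carry altered forms of genes that act in sperm.

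Several of the largest differences were in genes of spermatids and sperm, which were lower in t12/T43 cells. Of the 8957 genes, 75 were lower in t12/T43 cells, which is 0.837% of those tested, and 6 were higher, which is 0.067%, or 0.904% in either direction. A gene is called lower or higher here where limma's adjusted p, from a fit in which the 10 sorted arrays shared one estimate of the spread, was under 0.05. The counts lean on the C57BL/10J arrays in that estimate: fitted on the 6 carrier arrays alone, limma called 12 genes lower and 0 higher. Of the 75, 23 reached 4 only on Ttf/T43H arrays and so entered the comparison only through the group in which they are high, and a further 27 lay under 4 on 1 or 2 t12/T43 arrays. Of the 6 higher genes, 2 reached 4 only on t12/T43 arrays. Values under 4 carry little signal, so for all these genes such values were set to 4 and the fold is given as a lower bound, "at least", while p-values are those of the fit to the values as deposited. The 25 lower genes with every t12/T43 array at 4 or more were lower by 2.40-fold to 29.5-fold, with a median of 5.71-fold. The median change of all tested genes was 0.06 on the log2 scale. The ranges of the groups did not overlap for any of the 81 called genes. Of the 75, 13 belonged to a list of spermatid or sperm genes and 17 had only the name of a clone.

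Promoters of 4 of the lower genes were read for motifs of transcription factors that act in germ cells. They run from 250 bases before to 50 after the annotated start in RefSeq's GRCm38.p6 annotation, and are shown for Tnp2, the gene with the largest fall, for Izumo1, the 1 lower gene with a full cyclic AMP response element, and for Tcp11 and Tex35, which hold the core sequence bound by RFX factors. Capitals mark the response element TGACGTCA and the RFX core, GTTGCC on either strand.
Tnp2: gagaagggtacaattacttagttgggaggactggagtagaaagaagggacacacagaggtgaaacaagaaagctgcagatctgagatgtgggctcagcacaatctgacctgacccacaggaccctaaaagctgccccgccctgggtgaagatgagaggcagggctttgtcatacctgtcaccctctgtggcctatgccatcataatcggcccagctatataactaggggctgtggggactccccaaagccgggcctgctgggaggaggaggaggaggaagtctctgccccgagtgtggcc
Izumo1: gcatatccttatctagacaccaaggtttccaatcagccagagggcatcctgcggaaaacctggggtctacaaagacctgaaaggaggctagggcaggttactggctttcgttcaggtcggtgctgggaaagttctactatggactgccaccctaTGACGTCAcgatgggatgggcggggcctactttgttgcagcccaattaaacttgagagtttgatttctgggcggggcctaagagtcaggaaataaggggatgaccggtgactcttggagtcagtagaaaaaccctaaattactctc
Tcp11: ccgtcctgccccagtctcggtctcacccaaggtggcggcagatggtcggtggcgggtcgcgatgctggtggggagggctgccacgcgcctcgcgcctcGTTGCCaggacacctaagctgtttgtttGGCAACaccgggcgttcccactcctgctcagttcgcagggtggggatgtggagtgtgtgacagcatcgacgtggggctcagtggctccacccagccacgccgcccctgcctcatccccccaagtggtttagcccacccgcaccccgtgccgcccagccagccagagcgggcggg
Tex35: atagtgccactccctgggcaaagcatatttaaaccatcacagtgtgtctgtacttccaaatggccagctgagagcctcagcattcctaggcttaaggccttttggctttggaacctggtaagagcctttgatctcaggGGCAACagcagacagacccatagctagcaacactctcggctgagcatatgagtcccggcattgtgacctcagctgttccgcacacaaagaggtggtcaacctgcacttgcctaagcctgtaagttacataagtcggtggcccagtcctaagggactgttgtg
The Tnp2 promoter lies at chr16:10788606-10788905 on the minus strand, that of Izumo1 at chr7:45621561-45621860 on the plus strand, that of Tcp11 at chr17:28080590-28080889 on the minus strand and that of Tex35 at chr1:157108609-157108908 on the minus strand. RefSeq's table held promoters for 68 of the 75 lower genes and for 7418 of the tested genes. The full response element was in 1 of the 68, or 1.47%, in 3.64% of the tested genes' promoters and in 1.88% of all promoters in the table. Its core, TGACG on either strand, which the full element contains, was in 13 of the 68 lower genes' promoters, in 2523 of the 7418 tested, or 34.0%, and in 5681 of all 27025 promoters in the table, so that the lower genes' share was under that of the tested genes and close to that of the whole table. The RFX core was in 15 of the 68 lower genes' promoters, or 22.1%, in 1039 of the 7418 tested and in 12.7% of all promoters in the table. These matches are of letters within one window and were not tested.

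Genes that pack the spermatid nucleus showed the widest gap. Tnp2, a transition protein that replaces histones in spermatids and is encoded on chromosome 16, had log2 values of 4.59, 3.46 and 4.68 on the t12/T43 arrays, against 9.62, 10.87 and 9.71 on the Ttf/T43H arrays. All t12/T43 arrays were thus near 4, 1 of them under it, and the groups lay far apart. Tnp2 was at least 50.1-fold lower in t12/T43 cells, with an adjusted p of 0.00294 by limma. Prm2, protamine 2 of the sperm nucleus and also on chromosome 16, had values of 5.03, 6.46 and 5.26 on the t12/T43 arrays, against 10.17, 9.97 and 9.95 on the Ttf/T43H arrays. It was 21.8-fold lower in t12/T43 cells (limma adjusted p = 0.00294), and t12/T43 replicate 2 was the highest of its group.

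Tnp1, the other main transition protein, had values of 6.73, 9.04 and 6.77 in t12/T43 and of 11.01, 11.75 and 11.33 in Ttf/T43H. Hmgb4, a germ cell HMG-box protein of chromatin, had values of 2.60, 5.5 and 3.06 in t12/T43 and of 7.89, 9.40 and 8.14 in Ttf/T43H. For both genes t12/T43 replicate 2 stood well above its group and still below every Ttf/T43H array. Tnp1 was 14.4-fold lower (limma adjusted p = 0.0233) and Hmgb4 at least 15.7-fold lower (limma adjusted p = 0.0237). Over the list of spermatid chromatin genes, 4 of 12 tested members, or 33.3%, were called lower by limma and none higher, beside 0.837% of all tested genes called lower. The ranges of the groups did not overlap for 11 of the 12, all lower in t12/T43, where 6.14% of all tested genes were lower without overlap and 5.88% were higher. The list's median change was -3.80, or -3.77 with values under 4 set to 4, and -3.14 without Ttf/T43H replicate 2 and t12/T43 replicate 3.

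**Figure D1:**
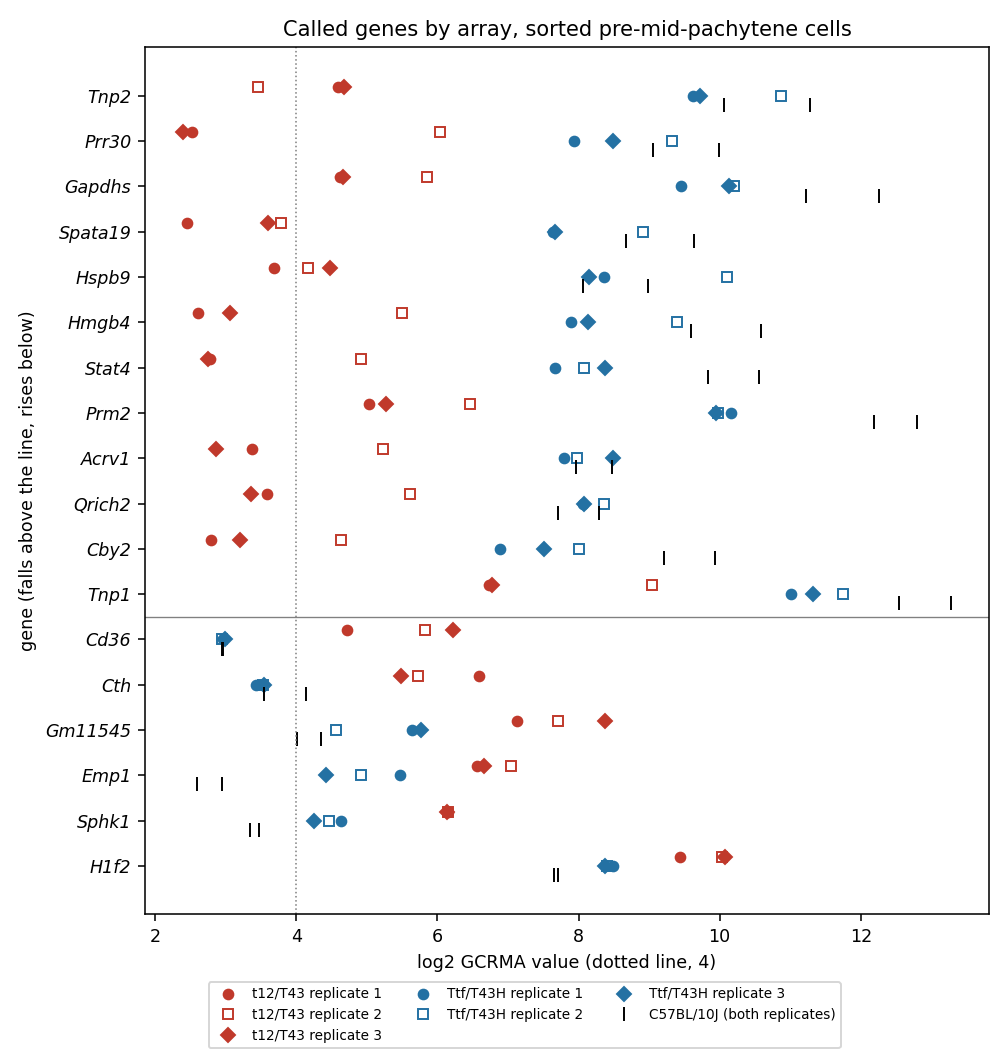
Log2 GCRMA values (horizontal axis) of the 12 named genes with the largest falls, above the line, and the 6 genes called higher, below it, with 1 point per array for t12/T43, Ttf/T43H and C57BL/10J cells of that stage. For every gene the 3 t12/T43 points lie apart from the 3 Ttf/T43H points, and for most falls the open square of t12/T43 replicate 2 is nearest to Ttf/T43H.

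The acrosome, the secretory cap with which sperm penetrate the egg coat, was represented by 21 tested genes. Limma called 3 of them lower, or 14.3%, beside 0.837% of all tested genes, and none higher. Acrv1, an acrosomal matrix protein, had values of 3.37, 5.23 and 2.86 in t12/T43, against 7.79, 7.98 and 8.48 in Ttf/T43H. Izumo1, the sperm surface protein needed for fusion with the egg, had values of 3.24, 3.11 and 2.18 in t12/T43, against 5.31, 6.01 and 5.31 in Ttf/T43H. Its promoter is the one shown above with the full response element, and its t12/T43 values all lie below 4. Acrv1 was at least 12.8-fold lower (limma adjusted p = 0.0153) and Izumo1 at least 2.92-fold lower (limma adjusted p = 0.0166). Acrbp, which binds proacrosin in the acrosome, was 3.61-fold lower (limma adjusted p = 0.0331), with t12/T43 values of 5.38, 4.70 and 4.90 against 6.88, 6.30 and 7.37 in Ttf/T43H. Of the 21 genes, 11, or 52.4%, had t12/T43 ranges wholly below those of Ttf/T43H, beside 6.14% of all tested genes, and 0 wholly above. The median change was -1.64, or -1.42 with values under 4 set to 4 and -1.49 without Ttf/T43H replicate 2 and t12/T43 replicate 3.

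All 33 tested genes of the sperm tail and mitochondrial sheath had a change below 0, beside 3864 of all 8957 tested genes. Limma called 5 of the 33 lower, or 15.2%, beside 0.837% of all tested genes. Spata19, a mitochondrial protein of the sperm midpiece, had values of 2.45, 3.79 and 3.60 in t12/T43 and of 7.63, 8.92 and 7.67 in Ttf/T43H, which is at least 16.8-fold lower (limma adjusted p = 0.00631). Its t12/T43 values were all under 4. Septin12, a septin of the annulus between the parts of the tail, lay at 2.85, 3.83 and 2.81 in t12/T43, against 5.63, 5.65 and 6.97 in Ttf/T43H. Tssk3, a kinase of spermatids, lay at 2.37, 3.73 and 2.26 in t12/T43, against 5.92, 5.90 and 7.21 in Ttf/T43H. Txndc2, a thioredoxin of the sperm tail, lay at 3.97, 6.13 and 3.99 in t12/T43, against 8.0, 8.0 and 7.96 in Ttf/T43H. In all 3 of these genes, t12/T43 replicate 2 was the highest of its group without reaching Ttf/T43H. Septin12 was at least 4.24-fold lower (limma adjusted p = 0.0229), Tssk3 at least 5.07-fold (limma adjusted p = 0.0182) and Txndc2 at least 9.67-fold (limma adjusted p = 0.0374). The fifth called member, Tcp11, is described with chromosome 17. The median change of the list was -2.82, or -2.55 with values under 4 set to 4, and -2.35 without Ttf/T43H replicate 2 and t12/T43 replicate 3.

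Other tail genes were picked up outside the list. Dnajb13, a chaperone-like protein of the radial spokes of the axoneme, had values of 4.56, 4.05 and 3.67 in t12/T43 and of 7.14, 6.66 and 7.64 in Ttf/T43H. Qrich2, which is needed to build the sperm flagellum, had values of 3.59, 5.61 and 3.36 in t12/T43 and of 8.06, 8.36 and 8.07 in Ttf/T43H. Dnajb13 was at least 7.70-fold lower (limma adjusted p = 0.00631) and Qrich2 at least 12.4-fold lower (limma adjusted p = 0.0132).

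Akap4, the X-linked anchoring protein of the fibrous sheath, was not called. It had values of 5.61, 9.61 and 4.76 in t12/T43, against 10.15, 10.28 and 10.83 in Ttf/T43H. The value of 9.61 on t12/T43 replicate 2 was close to Ttf/T43H, so that a change of -3.76 ± 1.05 (SE) had a limma adjusted p of 0.177. Without t12/T43 replicate 2 the change was -5.24, and limma's adjusted p was 0.000327. The array left out was the one nearest to Ttf/T43H, so the smaller p largely followed from that choice. Akap4 remains uncalled.

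Energy metabolism of sperm relies largely on isoforms of germ cells, and 1 of 18 tested members of that list was called lower by limma. This was Gapdhs, the glycolytic enzyme of the sperm tail, at 4.62, 5.85 and 4.66 in t12/T43, against 9.46, 10.21 and 10.13 in Ttf/T43H. It was 29.5-fold lower in t12/T43 (limma adjusted p = 0.00451). Oxct2a, a ketone body enzyme of germ cells, was at 2.39, 6.67 and 2.37 in t12/T43, against 7.40, 7.14 and 8.44 in Ttf/T43H, and was not called (limma adjusted p = 0.147). Pgk2, the germ cell phosphoglycerate kinase, was at 7.53, 10.37 and 7.43 in t12/T43, against 10.35, 10.82 and 11.07 in Ttf/T43H, and its ranges overlapped. In both, t12/T43 replicate 2 lay about as high as Ttf/T43H or just below it. The list's median change was -0.39, and -0.59 without Ttf/T43H replicate 2 and t12/T43 replicate 3.

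Falls with no list included Stat4, a transcription factor best known from cytokine signalling. It had values of 2.78, 4.92 and 2.75 in t12/T43 and of 7.67, 8.08 and 8.37 in Ttf/T43H, at least 13.3-fold lower (limma adjusted p = 0.0132). Hspb9, a small heat shock protein of the testis, had values of 3.68, 4.17 and 4.48 in t12/T43 and of 8.36, 10.11 and 8.15 in Ttf/T43H, at least 25.2-fold lower (limma adjusted p = 0.00631). Here Ttf/T43H replicate 2 was the highest array. Ppp3r2, the regulatory subunit of the calcineurin of sperm, had values of 2.34, 2.97 and 2.55 in t12/T43 and of 5.47, 5.55 and 6.18 in Ttf/T43H (at least 3.33-fold lower, limma adjusted p = 0.00554). Cby2, a spermatid-associated protein, was at least 9.55-fold lower (limma adjusted p = 0.0125), and Prr30, of which little is known, at least 15.0-fold lower (limma adjusted p = 0.0482). Prr30 had the widest spread of these, with 2.52, 6.03 and 2.40 in t12/T43 against 7.94, 9.32 and 8.48 in Ttf/T43H.

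Tex35, a testis-expressed gene, had the tightest groups among the large falls. Its values were 3.25, 3.36 and 2.92 in t12/T43 and 6.67, 6.77 and 7.05 in Ttf/T43H, a change of -3.65 ± 0.30 (SE; limma adjusted p = 0.00294), or at least 7.11-fold lower with the t12/T43 values set to 4. Together with Tnp2, Prm2, Gapdhs, Spata19, Hspb9, Ppp3r2, Dnajb13 and the clone-named 1700086L19Rik and 1700129C05Rik, it was called lower whichever 1 of the 6 carrier arrays was left out. Of the genes called higher, Sphk1 alone met the same condition. 1700086L19Rik was 6.85-fold lower (limma adjusted p = 0.00554) and 1700129C05Rik at least 3.72-fold lower (limma adjusted p = 0.00554).

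**Figure D2:**
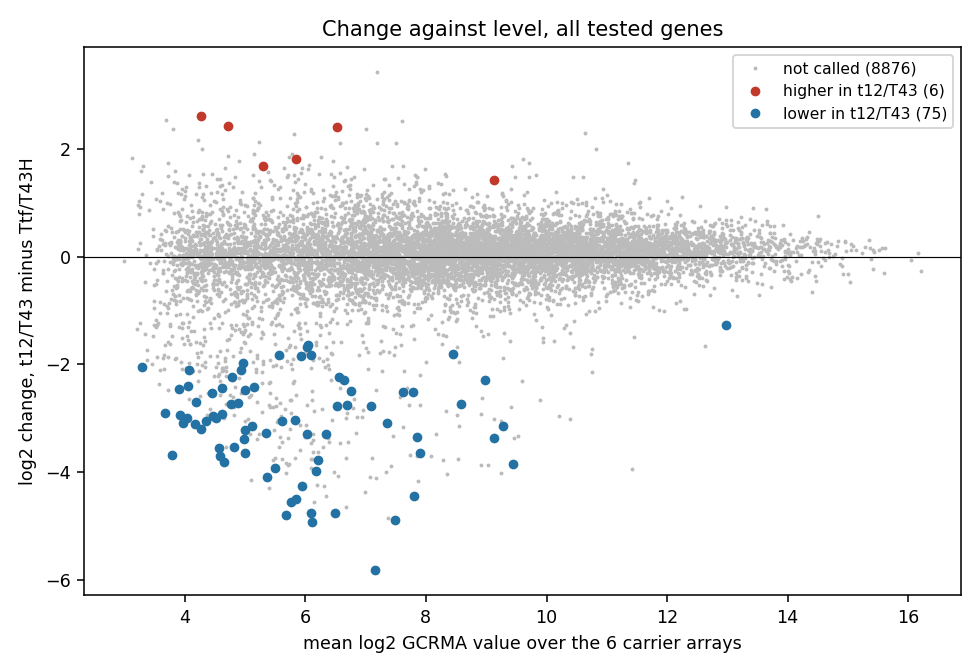
Change of each of the 8957 tested genes (vertical axis, log2, t12/T43 minus Ttf/T43H) against its mean log2 value over the 6 carrier arrays (horizontal axis), with the 6 genes called higher and the 75 called lower in colour. A cloud of genes, called and uncalled, extends below a change of -2, and no cloud of the same depth extends above 2.

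The 6 genes called higher came from several functions. Cd36, a receptor and transporter for fatty acids, had values of 4.71, 5.82 and 6.23 in t12/T43, against 2.97, 2.94 and 2.99 in Ttf/T43H. Cth, which makes cysteine from cystathionine, had values of 6.58, 5.72 and 5.48 in t12/T43, against 3.43, 3.52 and 3.55 in Ttf/T43H. The Ttf/T43H values of both were under 4, so these 2 genes reached that level only in t12/T43. Cd36 was at least 3.01-fold higher (limma adjusted p = 0.0137) and Cth at least 3.81-fold higher (limma adjusted p = 0.0125).

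Sphk1, the kinase that forms the signalling lipid sphingosine 1-phosphate, had values of 6.15, 6.15 and 6.13 in t12/T43, against 4.63, 4.46 and 4.24 in Ttf/T43H. The t12/T43 arrays were almost equal, and the gene was 3.24-fold higher (limma adjusted p = 0.0082). Emp1, a membrane protein, had values of 6.56, 7.04 and 6.66 in t12/T43, against 5.47, 4.92 and 4.42 in Ttf/T43H (limma adjusted p = 0.0291). H1f2, a linker histone of dividing cells, had values of 9.44, 10.04 and 10.07 in t12/T43, against 8.49, 8.40 and 8.37 in Ttf/T43H (limma adjusted p = 0.028). H1f2 was 2.70-fold higher. Gm11545, named because so few genes were higher and after its values were seen, was at 7.13, 7.70 and 8.38 in t12/T43, against 5.64, 4.57 and 5.77 in Ttf/T43H (limma adjusted p = 0.0331).

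The labelled stage was checked against marker lists. Genes of synapsis and the chromosome axis averaged 12.23, 11.62 and 12.49 on the t12/T43 arrays, against 12.16, 12.24 and 12.08 on the Ttf/T43H arrays, and 12.26 and 12.36 on the pre-mid arrays of C57BL/10J. They were lower, at 10.15 and 10.07, in C57BL/10J mid-late-pachytene cells, so on this list both carrier groups lay with the pre-mid stage. Dmc1, the recombinase of early meiosis, was at 11.57, 10.99 and 11.54 in t12/T43, against 11.01, 11.11 and 11.01 in Ttf/T43H, and at 3.58 and 3.50 in mid-late cells. None of the 16 synapsis genes, 21 recombination genes, 25 silencing and damage signalling genes, 15 leptotene and zygotene genes or 11 pachytene markers was called by limma. In these lists, 0, 0, 1, 1 and 2 members had an unadjusted p under 0.05, beside 926 of all 8957 tested genes. Their median changes were -0.03, 0.05, 0.01, -0.03 and 0.07, against 0.06 over all tested genes. Without Ttf/T43H replicate 2 and t12/T43 replicate 3 these medians were -0.34, -0.01, -0.10, -0.26 and -0.47, against -0.04 over all tested genes, and 10 of the 11 pachytene markers then lay below 0. Nor was any of 21 spermatogonial genes, 17 genes of the piRNA pathway or 13 p53 targets called, with 0 of each at an unadjusted p under 0.05 and median changes of -0.08, 0.36 and 0.14. Without the same arrays the first of these medians turned to 0.16, the second turned to -0.13 and the third was 0.14. Syce1, a central element protein of the synaptonemal complex, had the smallest p of its list, with a change of -0.40 and a limma adjusted p of 0.711.

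Markers of spermatids were nevertheless present in cells labelled pre-mid-pachytene. The 20 spermatid markers averaged 5.12, 7.42 and 5.05 on the t12/T43 arrays, 8.99, 9.34 and 9.47 on the Ttf/T43H arrays, and 11.12 and 10.49 on the C57BL/10J pre-mid arrays. The C57BL/10J mid-late arrays had 9.53 and 8.84, below the C57BL/10J pre-mid arrays. By limma, 7 of the 20 were called lower in t12/T43, and 19 had t12/T43 ranges wholly below those of Ttf/T43H. All 7 also stand in the lists of chromatin, acrosome or energy genes above, so the lists are not independent. The median change of the 20 was -3.80, or -3.70 with values under 4 set to 4, and without Ttf/T43H replicate 2 and t12/T43 replicate 3 it was -3.15, with all 20 below 0. In bulk RNA, fewer cells of a type and less RNA per cell cannot be told apart.

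**Figure D3:**
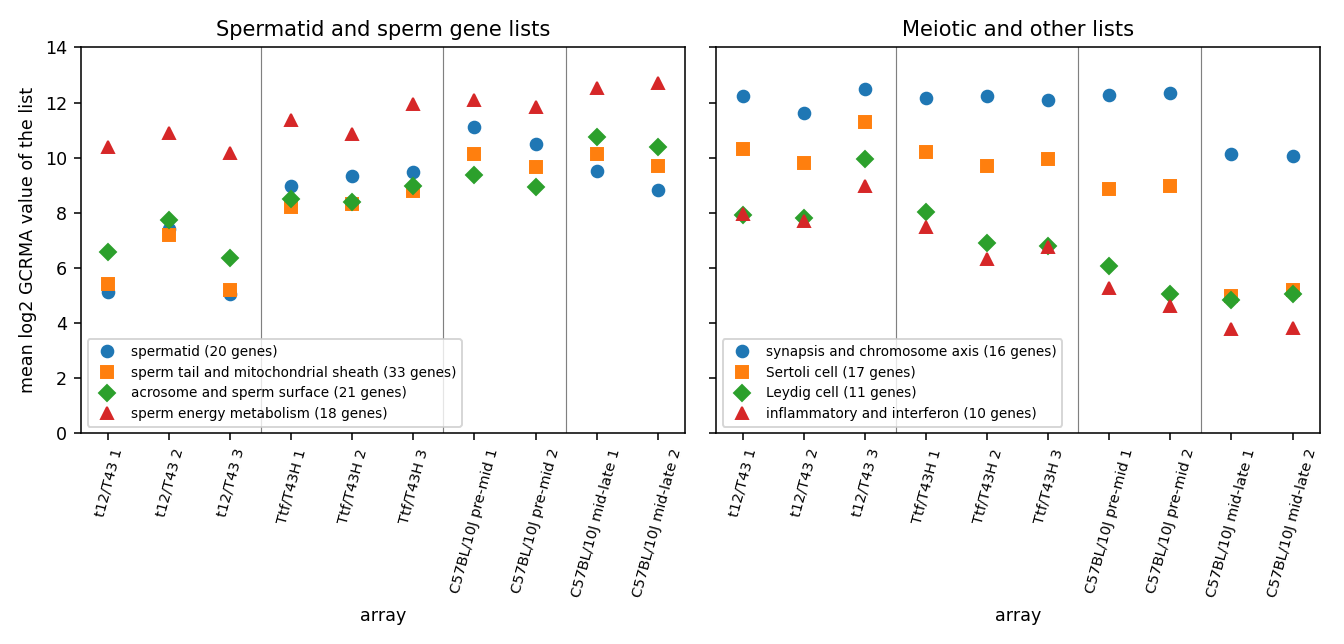
Mean log2 GCRMA value (vertical axis) of 8 gene lists on each of the 10 sorted arrays (horizontal axis), ordered as t12/T43, Ttf/T43H, C57BL/10J pre-mid-pachytene and C57BL/10J mid-late-pachytene. The spermatid and tail lists are lowest on t12/T43 replicates 1 and 3, higher on t12/T43 replicate 2, and higher again on all Ttf/T43H and C57BL/10J arrays, and the Leydig list is highest on t12/T43 replicate 3.

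Of the 29 tested genes of mid-late pachytene and the meiotic divisions, 2, or 6.90%, were called lower by limma, beside 0.837% of all tested genes, and none higher. The t12/T43 ranges lay wholly below those of Ttf/T43H for 6 of the 29, or 20.7%, and wholly above for 1, or 3.45%. Of all tested genes, 6.14% were wholly below and 5.88% wholly above. The median change was -0.03, with 15 of the 29 below 0, and -0.24 without Ttf/T43H replicate 2 and t12/T43 replicate 3, with 22 below 0. Spink2, a protease inhibitor of the acrosome, had values of 7.51, 8.06 and 7.95 in t12/T43, against 9.80, 10.32 and 10.25 in Ttf/T43H (4.88-fold lower, limma adjusted p = 0.0115). Tbc1d21, a GTPase-activating protein of the sperm tail, was at least 4.05-fold lower (limma adjusted p = 0.0333). Both are genes of sperm structure rather than of division, and Ccna1, the cyclin of the first meiotic division, had a change of -1.66 with a limma adjusted p of 0.122. Its values were 4.84, 6.23 and 4.65 in t12/T43, against 6.46, 7.23 and 7.01 in Ttf/T43H.

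The C57BL/10J arrays allowed the tested genes to be sorted by their difference between mid-late and pre-mid cells, independently of the carriers. This difference does not order genes by stage alone. The spermatid markers averaged 11.12 and 10.49 on the pre-mid arrays, above 9.53 and 8.84 on the mid-late arrays. The 1105 genes that were higher by at least 2 (log2) in C57BL/10J mid-late than pre-mid cells had a median change of -0.30 between the carriers, and -0.38 without Ttf/T43H replicate 2 and t12/T43 replicate 3. Of them, 29, or 2.62%, were called lower, beside 0.837% of all tested genes, and none higher. The t12/T43 ranges lay wholly below those of Ttf/T43H for 219, or 19.8%, beside 6.14% of all tested genes. They lay wholly above for 15, or 1.36%, beside 5.88%. The 1942 genes that were lower by at least 2 in mid-late cells had a median change of 0.16. Of them, 22, or 1.13%, were called lower and 1 higher, so the share called lower exceeded 0.837% in both sets. Their ranges were wholly lower for 90, or 4.63%, and wholly higher for 180, or 9.27%. The C57BL/10J pre-mid mean exceeded the t12/T43 mean for all 75 lower genes and the Ttf/T43H mean for 65 of them. These genes were chosen for low t12/T43 values, so the first count was largely set by that choice. The same counts were not made over all tested genes.

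Chromosome 17, where the groups differ by design, was divided at the gene order between Esp38 and Pgk2. In its proximal part, which holds the t haplotype region, 2 of 249 tested genes were called lower by limma and none higher. Tcp11, a t complex gene needed for normal sperm motility and printed above with 2 RFX cores, had values of 6.96, 8.07 and 6.63 in t12/T43, against 9.59, 9.95 and 10.30 in Ttf/T43H. It was 6.64-fold lower (limma adjusted p = 0.0153). Tcte2, a testis-expressed t complex gene, had values of 2.36, 2.98 and 2.70 in t12/T43, against 5.57, 4.31 and 5.55 in Ttf/T43H (limma adjusted p = 0.0333). Both belong to the t complex list, of which these 2 of 11 tested members, or 18.2%, were called, beside 0.837% of all tested genes called lower. Tcp10c, another member, was at 2.01, 7.89 and 3.17 in t12/T43, against 8.49, 9.55 and 8.99 in Ttf/T43H, and was not called (limma adjusted p = 0.151).

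The 2 called genes are 0.803% of proximal 17, beside 0.837% of all tested genes called lower. The t12/T43 range lay wholly below that of Ttf/T43H for 36 of the 249 genes, or 14.5%, beside 6.14% of all tested genes, and wholly above for 6. The median change was -0.24, and -0.11 without Ttf/T43H replicate 2 and t12/T43 replicate 3. Without replicate 2 of both groups it was 0.04. Relative to autosomes other than 16 and 17, the mean level of proximal 17 was -0.78, -0.72 and -0.67 on the t12/T43 arrays, against -0.57, -0.06 and -0.71 on the Ttf/T43H arrays. Ttf/T43H replicate 2 was thus the highest array, and Ttf/T43H replicate 3 lay among the t12/T43 arrays. Both C57BL/10J pre-mid arrays were higher than all but Ttf/T43H replicate 2, at -0.10 and -0.09.

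Dhx16, an RNA helicase of splicing on proximal 17, and Qk, an RNA-binding protein there, were chosen after their values were seen. Dhx16 had values of 9.10, 9.43 and 9.24 in t12/T43, against 10.22, 10.88 and 9.86 in Ttf/T43H, and was not called (limma adjusted p = 0.142). In the 15-day testes its change was -0.97, with a limma adjusted p of 0.00339. Qk had values of 5.84, 6.41 and 7.14 in t12/T43, against 5.21, 4.62 and 5.01 in Ttf/T43H (limma adjusted p = 0.078), and a testis change of 0.60 with a limma adjusted p of 0.0201. Of the 36 proximal genes with lower ranges, 29 had a testis change below 0 and 6 were called lower in testes, beside 133 and 22 of all 249.

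On distal 17, 1 of 175 tested genes, or 0.571%, was called lower by limma, Txndc2, and the median change was 0.06. On chromosome 16, 4 of 295, or 1.36%, were called lower, beside 0.837% of all tested genes, namely Tnp2, Prm2, Septin12 and Ccdc54, a coiled-coil gene at 2.86, 2.24 and 2.26 in t12/T43, against 4.54, 5.26 and 6.36 in Ttf/T43H. No gene of the X was called by limma among 288, with 34 at an unadjusted p under 0.05, beside 926 of all 8957 tested genes. Of 3 genes of the Y, none was called by limma and 0 had an unadjusted p under 0.05. The X had a median change of 0.21, and of 0.75 without replicate 2 of both groups. Its mean level relative to autosomes other than 16 and 17 was -0.89, -0.71 and -0.07 in t12/T43, against -0.85, -0.13 and -1.32 in Ttf/T43H, so the groups overlapped and each held 1 array near 0.

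The arrays near 0 were t12/T43 replicate 3 and Ttf/T43H replicate 2. By correlation over all tested genes, the array least like its group was replicate 2 in both t12/T43 and Ttf/T43H. Over the 8957 genes, t12/T43 replicates 1 and 3 correlated at r = 0.980 and Ttf/T43H replicates 1 and 3 at r = 0.984, as a description across genes on normalized arrays. Ttf/T43H replicate 2 correlated with its own group at r = 0.921 and 0.885. t12/T43 replicate 2 correlated with its own group at r = 0.939 and 0.925, and more closely, at r = 0.954 and 0.952, with Ttf/T43H replicates 1 and 3. It was the highest of its group for 63 of the 75 lower genes.

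Left-out arrays changed the number of calls widely. Without t12/T43 replicate 2, limma called 377 genes lower and 36 higher. Without t12/T43 replicate 1 it called 15 lower and 9 higher, and without t12/T43 replicate 3, 11 lower and 2 higher. Without Ttf/T43H replicates 1, 2 and 3 in turn, it called 31, 38 and 12 lower and 3, 4 and 2 higher. Without Ttf/T43H replicate 2 and t12/T43 replicate 3 together, limma called 0 genes, with 810 at an unadjusted p under 0.05, and the smallest adjusted p of a lower gene was 0.0511. The sizes moved less, with a median change of the 75 of -2.83 against -3.04 with all arrays. All 75 stayed below 0 and all 6 above 0, but this was set in advance. The ranges of these genes did not overlap, so leaving out arrays could not turn their sign. Leaving out replicate 2 of both groups, the arrays least like their groups by correlation, was tried after the data were seen. Limma then called 440 genes lower and 87 higher, among them all 75 and all 6, and the median change of the 75 was -3.28. For 63 of the 75 lower genes, t12/T43 replicate 2 was the t12/T43 array with the highest value. The kept calls and the larger change thus largely followed from the choice of arrays.

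**Figure D4:**
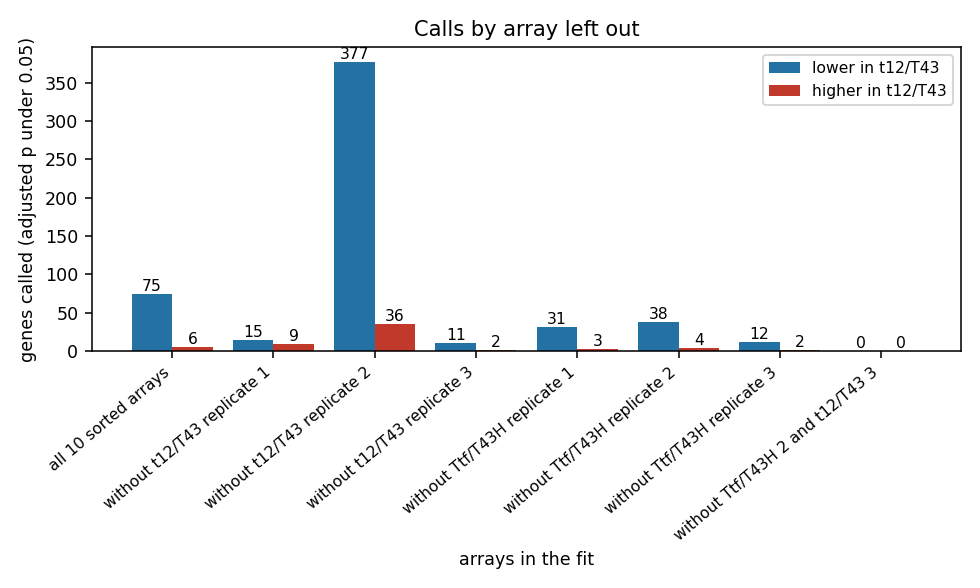
Genes called lower and higher in t12/T43 (bars, counts at an adjusted p under 0.05) with all 10 sorted arrays, without each carrier array in turn, and without Ttf/T43H replicate 2 and t12/T43 replicate 3. The count of lower genes runs between 377, without t12/T43 replicate 2, and 0, without both of these arrays.

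Beyond spermatogenic cells, genes of the testis interstitium were more abundant on 1 t12/T43 array. The 11 tested Leydig cell markers, genes of steroid-producing cells, averaged 7.91, 7.83 and 9.96 in t12/T43, against 8.04, 6.92 and 6.80 in Ttf/T43H. All 11 had a change above 0, beside 5093 of all 8957 tested genes. None of the 11 was called by limma, and 3 had an unadjusted p under 0.05, beside 926 of the 8957. The median change of the 11, 1.25, became 0.13 without Ttf/T43H replicate 2 and t12/T43 replicate 3. Hsd3b1, a steroid dehydrogenase, was at 7.88, 6.94 and 9.73 in t12/T43, against 6.70, 5.35 and 5.39 in Ttf/T43H (limma adjusted p = 0.336). The 17 Sertoli cell markers, genes of the supporting cells, averaged 10.33, 9.82 and 11.30 in t12/T43, against 10.21, 9.70 and 9.96 in Ttf/T43H, with none called by limma and 3 at an unadjusted p under 0.05. Their median change of 0.37 became -0.14 without those 2 arrays. Both lists were highest on t12/T43 replicate 3, and their part in the called genes was not tested.

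No gene of the inflammatory list or of the list of immediate early and heat shock genes passed the test. Where 5093 of all 8957 tested genes had a change above 0, all 10 tested genes of the inflammatory list did. Of them, 6, or 60.0%, had ranges above those of Ttf/T43H, beside 5.88% of all tested genes. None was called by limma, with 5 at an unadjusted p under 0.05, beside 926 of all 8957 tested genes. The list's median change was 1.23, and 0.57 without Ttf/T43H replicate 2 and t12/T43 replicate 3. Il1a, which encodes interleukin 1 alpha, was at 8.88, 7.99 and 9.83 in t12/T43, against 7.26, 3.78 and 5.38 in Ttf/T43H (limma adjusted p = 0.0961). Cxcl2, a neutrophil chemokine, was at 8.49, 8.56 and 9.55 in t12/T43, against 7.44, 5.23 and 6.36 in Ttf/T43H (limma adjusted p = 0.0762). Of the 24 tested immediate early and heat shock genes, 16 had a change above 0 and 8 below. Ranges were wholly higher in t12/T43 for 3, or 12.5%, beside 5.88% of all tested genes. They were wholly lower for 2, or 8.33%, beside 6.14%. The median change of the 24 genes was 0.20, or 0.07 without Ttf/T43H replicate 2 and t12/T43 replicate 3. Their mean levels overlapped, at 7.89, 7.86 and 8.77 in t12/T43, against 7.80, 8.53 and 7.45 in Ttf/T43H. Atf3, a stress-induced transcription factor, was at 6.46, 6.12 and 7.62 in t12/T43, against 4.34, 4.75 and 5.37 in Ttf/T43H (limma adjusted p = 0.0745). For Il1a, Cxcl2 and Atf3 the groups did not overlap, and t12/T43 replicate 3 was the highest array.

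RNA quality measures of the arrays overlapped between the groups. The difference between the 3' and 5' probe sets of glyceraldehyde phosphate dehydrogenase was 3.44, 3.98 and 3.80 in t12/T43, against 3.43, 3.91 and 3.26 in Ttf/T43H (log2). For actin it was 3.13, 3.99 and 3.48 in t12/T43, against 3.25, 4.41 and 3.06 in Ttf/T43H. Replicate 2 of each group had the largest of both measures. Between 53.8% and 56.2% of probe sets reached 4 on these arrays.

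In whole testes of 15-day-old carriers, most of these genes were not measurable. Of the 75 genes lower in sorted cells, 56 lay under 4 on every testis carrier array, and 18 reached 4 on at least 2. In testes limma called 4.43% of the same 8957 genes lower and 1.38% higher, and it called 5 of the 75 lower, or 6.67%, and none higher. These were Ppp3r2, Hspb9, Spink2 and the clone-named 1700028J19Rik and 1700074P13Rik, the clones being named after their values were seen. Hspb9 had testis values of 3.95, 2.29 and 2.26 in t12/T43, against 7.44, 6.00 and 5.28 in Ttf/T43H, a change of -3.41 ± 0.66 (SE; limma adjusted p = 0.0398). Ppp3r2 had testis values of 4.27, 2.31 and 2.98 in t12/T43, against 6.37, 5.32 and 5.15 in Ttf/T43H (limma adjusted p = 0.0483). In both genes the testis groups were apart, as the sorted groups were. These arrays come from other animals than the sorted arrays.

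The difference between the carriers was also tested against itself between sorted cells and testes. By limma, 76 of the 8957 genes, or 0.848%, differed in that respect, among them 61 of the 75 lower and 5 of the 6 higher genes. This test uses again the sorted arrays by which those genes were called, so the overlap was largely set in advance. For a gene under 4 in testes a difference by this test rests on the sorted arrays alone, while its p also draws on the spread of the testis arrays. Cth is not such a gene: its testis values were 8.14, 7.90 and 7.75 in t12/T43, against 7.98, 7.75 and 7.44 in Ttf/T43H, and the difference between sorted cells and testes was 2.23 (limma adjusted p = 0.00886). Emp1 likewise lay at 9.89 to 10.13 in t12/T43 testes, against 9.90 to 9.97 in Ttf/T43H testes, with a difference of 1.72 between sorted cells and testes (limma adjusted p = 0.0174).

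**Figure D5:**
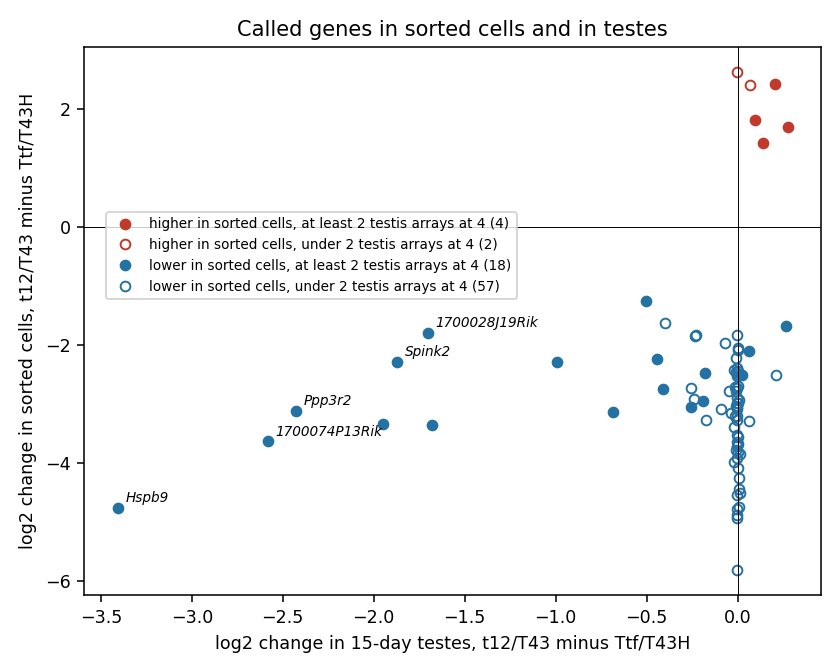
Change of the 81 called genes in sorted cells (vertical axis) against their change in 15-day testes (horizontal axis), both log2, t12/T43 minus Ttf/T43H, with filled points for genes at 4 or more on at least 2 testis arrays. Most points lie on the vertical line at a testis change of 0, and the 5 genes labelled are those called lower in testes too.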

How the data were processed

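RNA of 20 to 30 ng went through a 2-cycle biotin labelling and was hybridised to Affymetrix arrays, per the labels. Values are on the log2 scale as the authors deposited them, after background correction, normalization and summary of probes by GCRMA (submitters' processing notes). The sources used here give neither its version, nor which arrays were normalized together, nor a genome build or filter. In all, the table holds 16539 probe sets, 1 per Entrez gene, of which 15780 carry 1 symbol and 759 none, 64 of these being array controls. The unnamed were left out, and 15752 genes were placed on a chromosome through RefSeq's GRCm38.p6 table, used for names and gene order.

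Values were used as deposited. The 10 sorted arrays were fitted with limma 3.58.1 in R 4.3.3 (lmFit, 1 mean per group, eBayes), tests were two-sided, and Benjamini-Hochberg adjustment ran over the 8957 genes. The same genes were fitted on the 8 testis arrays, 2 of them of C57BL/6J testes, and on all 18 arrays to test the difference between sorted cells and testes. The fit of the sorted arrays was tested on simulated data with independent noise and, for each gene, the same spread on every array. The simulated data held no array that stands apart from its group, so the test does not cover that case. Errors are limma's moderated standard errors. Arrays give no depth, and their number limits the precision. The deviations of same-numbered arrays of the groups were not positively correlated for every number (r of 0.255, 0.0164 and -0.357 in sorted cells; 0.492, -0.0291 and 0.697 in testes), so the numbers were not used as pairs.

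The rule for named genes takes the 12 largest falls and up to 12 largest rises among called genes without overlap and without a clone name, up to 4 members of each list with the smallest p and any called member, called genes on 16, 17, X and Y, Zfy2, genes that deviated on both Ttf/T43H replicate 2 and t12/T43 replicate 3, and calls kept whichever carrier array was left out. The text names fewer. The comparison, the lists and the rule were chosen with earlier results of these data known. Alternatives were other filters, scalings and spread estimates, a replicate block and left-out arrays, of which 1, leaving out replicate 2 of both groups, was chosen after seeing the data.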

Additional observations from a re-analysis of the deposited data

Results flagged for a closer look

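For 28 named genes the t12/T43 minus Ttf/T43H change was not the same size in sorted cells as in 15-day testes, by limma with adjusted p-values between 0.000105 and 0.0367. The value for each gene is the sorted change minus the testis change, on the log2 scale. All of these genes were also called in sorted cells, from the same sorted arrays that this value uses. Of these genes, only Dnajb13, Cth, Emp1 and Sphk1 reached 4 on at least 2 testis carrier arrays, so for the others the value rests on the sorted arrays. Their p-values also draw on the spread of testis arrays on which they were hardly measurable. For Tex35, limma's adjusted p was 0.00294 in the sorted fit and 0.000105 here. A smaller p here is thus no sign of a clearer difference.

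Among genes of the spermatid nucleus and acrosome, the value was -5.82 for Tnp2, -4.45 for Prm2, -3.86 for Tnp1, -4.77 for Hmgb4, -4.27 for Acrv1 and -2.70 for Izumo1. Among genes of the tail and of sperm metabolism it was -4.79 for Spata19, -2.68 for Septin12, -3.56 for Tssk3, -2.48 for Tcp11, -3.35 for Txndc2, -4.88 for Gapdhs, -2.80 for Dnajb13, -3.96 for Qrich2 and -2.99 for Tbc1d21. Among the other lower genes it was -2.94 for Ccdc54, -2.45 for Tcte2, -3.92 for Cby2, -4.55 for Stat4, -4.93 for Prr30, -3.65 for Tex35, -2.77 for 1700086L19Rik and -2.22 for 1700129C05Rik. Among the higher genes it was 2.63 for Cd36, 2.23 for Cth, 1.72 for Emp1, 1.42 for Sphk1 and 2.34 for Gm11545.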

How the results depend on the processing

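In sorted cells, where 75 genes were lower and 6 higher, no filter gave 14 and 1, a value of 4 on all 6 arrays 7 and 1, only the 6 carrier arrays 12 and 0, and limma without eBayes 2 and 1. Quantile normalization gave 59 lower and 12 higher. The replicate block gave 0 lower and 0 higher by limma, with 832 at an unadjusted p under 0.05, and leaving out Ttf/T43H replicate 2 and t12/T43 replicate 3 gave 0 and 0. Leaving out replicate 2 of both groups, chosen after seeing the data, gave 440 lower and 87 higher. With single arrays left out, the counts ran between 11 and 377 lower and between 2 and 36 higher; without a C57BL/10J array they were 41 or 46 lower and 3 higher.

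For the difference between sorted cells and testes, 69 lower and 7 higher, no filter gave 4 higher, a filter at 6 gave 42 lower and 4 higher, the replicate block 22 lower, and single arrays left out between 41 and 363 lower, the most without t12/T43 replicate 2, and between 3 and 50 higher. In testes, 397 lower and 124 higher, no filter gave 85 lower and 64 higher, the replicate block 1086 lower and 637 higher, and single arrays left out between 3 and 764 lower and between 1 and 262 higher. The highest counts came without Ttf/T43H testis replicate 3 and the lowest of lower genes without Ttf/T43H or t12/T43 testis replicate 2, so the testis calls depend on single arrays.

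Of 773 alternative values for the 35 named called genes, 322 no longer passed the threshold. None changed direction, but with arrays left out none could, because the ranges of these genes did not overlap. Settings that changed only the spread estimate also left every change as it was. Among uncalled genes, Zfy2, a Y-linked zinc finger gene, turned to -0.16 without Ttf/T43H replicate 2 and t12/T43 replicate 3, where its change with all arrays was 0.82. Without replicate 2 of both groups, Dynlrb1, a dynein light chain gene, turned to 0.81 and Uchl1, a deubiquitinating enzyme, to 0.65. Dynlrb1 ran between -1.79 and 0.035 with single arrays left out. List medians moved by less than the spread between arrays in 686 of 713 alternatives. That count overstates their stability, because some settings changed only limma's spread estimate and left every median as it was. The spread between arrays also included the arrays least like their groups. Medians turned in sign in 52 alternatives, most of them for medians near 0. The mid-late pachytene, pachytene marker and meiotic silencing medians turned most often. The spermatid median reached -4.92 without t12/T43 replicate 2. A fit with array weights did not converge and is not given. The causes were not tested.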

Other observations

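Ttf/T43H replicate 2 and t12/T43 replicate 3 were each set against the mean of the other 2 arrays of their group. Such a deviation can also come from 1 of those other arrays. Over 8957 genes, the 2 sets of deviations correlated at r = 0.18, as a description across genes, with 251 genes higher by more than 1 (log2) on both arrays and 75 lower. Dynlrb1, a light chain of the dynein motor, had values of 8.95, 6.16 and 9.81 in t12/T43, against 9.22, 10.89 and 7.93 in Ttf/T43H. Uchl1, a deubiquitinating enzyme abundant in spermatogonia, had values of 9.54, 7.36 and 9.80 in t12/T43, against 9.48, 11.43 and 8.56 in Ttf/T43H. In both genes t12/T43 replicate 3 lay nearer to replicate 1, and t12/T43 replicate 2 was the low array of its group. The list of spermatogonial genes averaged 9.71, 9.47 and 9.86 in t12/T43, against 9.44, 10.81 and 9.28 in Ttf/T43H, so that Ttf/T43H replicate 2 was highest. Zfy2, a Y-linked zinc finger gene silenced in normal pachytene, was at 10.92, 10.75 and 12.09 in t12/T43, against 11.35, 9.29 and 10.65 in Ttf/T43H, and its groups overlapped.

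Actg2, a smooth muscle actin listed as a peritubular cell marker, was at 3.67, 5.20 and 3.58 in t12/T43, against 6.60, 6.52 and 6.93 in Ttf/T43H, while C57BL/10J cells of the same stage gave 9.76 and 9.21. It was not called (limma adjusted p = 0.0558), and the 9 tested peritubular and endothelial markers had a median change of -0.30. Its order over the groups was that of the spermatid list.

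Hspa1l, the testis form of the heat shock protein HSP70 family on proximal 17, was at 3.53, 8.10 and 3.34 in t12/T43, against 8.30, 8.17 and 8.84 in Ttf/T43H. Replicate 2 of t12/T43 lay just below the lowest Ttf/T43H array. Limma's adjusted p was 0.235 with t12/T43 replicate 2 and 0.000177 without it. The array left out was the one nearest to Ttf/T43H, so the smaller p largely followed from that choice, and Hspa1l remains uncalled. Pgam2, a phosphoglycerate mutase of muscle and sperm, was at 10.02, 10.42 and 9.26 in t12/T43, against 11.36, 11.63 and 11.86 in Ttf/T43H (limma adjusted p = 0.0586), and was lower in t12/T43 testes too, by a change of -1.48 (limma adjusted p = 0.0497).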
